A study of Homo sapiens with 12 samples.

Results

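The genes described here are the clustered core and linker histone genes, the replication-dependent family that supplies H1, H2A, H2B, H3 and H4 to newly copied DNA. They were chosen by name, as every gene in the count files whose symbol belongs to the H1-1 to H1-6 series or to the numbered H2AC, H2BC, H3C and H4C series. This gave 66 of 19923 genes, of which 6 encode H1, 16 H2A, 17 H2B, 13 H3 and 14 H4. The files place 55 of them on chromosome 6 and 11 on chromosome 1.

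Polyadenylated RNA was sequenced from NGP and SK-N-BE2 cells, both long-established human neuroblastoma cultures, labelled as MYCN-amplified and of WT genotype. Both lines were cultured for 6 days with STM2457, a small-molecule inhibitor of the mRNA m6A methyltransferase METTL3, or with DMSO as control. The dose was 12 µM in SK-N-BE2 and 1 µM in NGP, and each of the 4 groups held 3 replicates, 12 libraries in all. The lines were sequenced in different runs, so comparisons between them mix cell line with dose and run, which cannot be told apart. The labels do not say whether replicates were separate cultures, so the p-values measure only the spread between these samples. In such bulk RNA, a smaller number of cells making a transcript and less transcript per cell cannot be told apart.

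Libraries held 47242379 to 58159937 counted reads. The 9 neuroblastoma markers (among them MYCN, HAND2 and GATA3) summed to 5742 to 6777 CPM (reads-per-million units, scaled by TMM) in SK-N-BE2 and to 5647 to 6810 CPM in NGP. Of these markers TH was low in NGP, with a mean of 0.514 CPM in DMSO. Summed markers of blood, endothelium and epithelium stayed at or below 9.94 CPM in every library. The summed fibroblast markers (COL1A1, COL1A2, DCN and LUM) were at 68.5 to 78.6 CPM with DMSO and 144 to 157 CPM with STM2457 in SK-N-BE2. In NGP they were at 31.5 to 40.1 CPM and 139 to 157 CPM, and COL1A2 was at or near 0 in every library. The mitochondrial share of reads was 2.78% to 3.64% in NGP with DMSO and 6.46% to 7.16% with STM2457, and 8.23% to 11.3% over all SK-N-BE2 libraries. The part of these shifts in the histone results was not tested.

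Clustered histone genes are switched on as cells enter S phase, when NPAT, activated by cyclin E and CDK2, drives their transcription at the histone locus body. Their mRNAs normally carry no poly(A) tail: a hairpin just after the stop codon is bound by the stem-loop binding protein SLBP, the U7 snRNP directs cleavage behind it, and the mRNA is destroyed when DNA synthesis stops. Some of the genes can also be read through the hairpin to a downstream poly(A) signal, which gives polyadenylated transcripts. A library made from poly(A) RNA therefore samples the tailed minority of these transcripts and not the bulk of histone mRNA.

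The hairpin was found in the reference genome (GRCh38) behind the stop codon of 63 of the 66 genes, 22 to 67 bases downstream. It was not found by this search for H3C6, H2BC10 and H4C13. The search required GG and CC at the ends and TT first in the loop, so the hairpins share these bases by definition. The 63 hairpins came in 7 spellings, and class set the stem. All 13 H4 genes with a hairpin began it with GGCCC, while none of the 50 genes of other classes did. The commonest spelling, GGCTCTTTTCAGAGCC, was held by 38 genes, none of them an H4 gene. Shown here, because the results below turn on these genes, are 8 hairpins in capitals with 5 bases on each side in lower case, 5′ to 3′ on the coding strand.
H2BC21 (chr1:149886188-149886203, minus strand): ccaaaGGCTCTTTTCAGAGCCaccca
H3C10 (chr6:27810516-27810531, plus strand): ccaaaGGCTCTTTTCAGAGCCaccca
H2BC15 (chr6:27839090-27839105, plus strand): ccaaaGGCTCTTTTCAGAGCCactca
H1-2 (chr6:26055744-26055759, minus strand): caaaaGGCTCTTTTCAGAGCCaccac
H2BC7 (chr6:26199968-26199983, plus strand): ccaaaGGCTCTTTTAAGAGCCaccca
H2AC11 (chr6:27133515-27133530, plus strand): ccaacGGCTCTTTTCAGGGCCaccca
H4C5 (chr6:26205001-26205016, plus strand): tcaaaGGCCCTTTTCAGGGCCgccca
H4C9 (chr6:27139654-27139669, plus strand): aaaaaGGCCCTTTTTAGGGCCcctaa

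Members differed in how far the counted gene model ran beyond the hairpin. In 42 genes the counted exons ended at the hairpin or at most 86 bases past it (H4C2), and their exon length had a median of 411 bases. In 21 genes, called extended here, the counted exons ran 212 (H4C9) to 4131 (H2BC15) bases past it, with a median length of 1668 bases. The division at 100 bases falls in the gap between those values and was chosen after the data were seen. The poly(A) signal AATAAA stood on the sense strand within the last 50 counted bases of 13 of 21 extended models and of 3 of 42 models ending at the hairpin, against 58.5% of all counted genes. A short model counts no read that lies far beyond its hairpin, while an extended model does.

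The 250 bases before the RefSeq start (GRCh38.p14), found for 61 of the 66 genes, held the family's shared promoter words, searched on both strands. TATAAA stood in 68.9% of them against 13.1% of all promoters of that length, and CCAAT in 85.3% against 37.0%. The octamer ATTTGCAT, the site named for POU2F1, stood in 42.6% against 2.03%: in 11 of 15 H2A, 14 of 17 H2B and 1 of 11 H3 promoters, and in none of the 6 H1 and 12 H4 promoters. The H3 match lies in a second start listed for H3C4, whose window is also the H2AC7 promoter, and the other H3C4 window holds none. The H1 word AAACACA stood in 6 of 6 H1 promoters and in no other member, against 5.96% of all promoters. Below are the promoter of H2BC21, the member with the most reads in treated NGP cells, and that of H1-2, the leading linker histone, with these words in capitals. H2BC21 holds all but the H1 word, whereas H1-2 holds CCAAT and AAACACA (the latter on both strands) but neither TATAAA nor the octamer.
H2BC21 (chr1:149886683-149886932, minus strand): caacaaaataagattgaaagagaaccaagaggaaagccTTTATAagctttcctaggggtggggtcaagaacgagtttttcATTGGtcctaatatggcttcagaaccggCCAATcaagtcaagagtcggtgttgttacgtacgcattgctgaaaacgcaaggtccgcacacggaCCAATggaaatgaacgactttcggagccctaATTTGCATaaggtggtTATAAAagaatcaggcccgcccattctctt
H1-2 (chr6:26056471-26056720, minus strand): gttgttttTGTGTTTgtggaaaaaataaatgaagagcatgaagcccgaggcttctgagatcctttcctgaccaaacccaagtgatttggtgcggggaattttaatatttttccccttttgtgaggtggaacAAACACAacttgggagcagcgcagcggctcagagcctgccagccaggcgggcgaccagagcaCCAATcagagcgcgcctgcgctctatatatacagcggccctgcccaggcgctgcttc

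Near-identical copies limited what could be counted, because a read that fits 2 places was discarded. In 7 genes (H4C14, H3C14, H2AC18, H2AC19, H3C15, H4C15 and H4C12) no 50-base stretch of the counted exons occurred only once in the genome, and in 14 genes under 80% did. Lengthening the stretch to 100 bases left the same number, 7, without any unique stretch. Of the well-read members, H2BC12 had 25.9% unique stretches and H2BC18 32.7%, so their levels are lower limits. Among the 8 genes listed at 0 reads in all 12 libraries, H2AC18 has no unique stretch, H3C4 and H2AC15 lie wholly within exons of another counted gene and H2AC17 shares 88.0% of its exon with H3C12. H2AC1, H2BC1, H1-1 and H4C6 were the others at 0. Another 8 genes had at most 37 reads over all libraries (H4C13). These 16 entered no test, leaving 50 members tested in NGP and 30 in SK-N-BE2. In all, 17 members share exonic bases with another gene. Reads on the shared bases cannot be told apart in these counts, for which no strand option was set. The shared part was 1.62% of the counted exon bases in H2AC6, 5.54% in H2BC18 and 10.1% in H2BC15. It was 13.3% in H4C8, 28.2% in H2BC6 and 68.5% in H2BC4.

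Summed over all 66 genes, clustered histone reads doubled in NGP and stayed level in SK-N-BE2. In NGP with DMSO the 3 libraries held 96.9, 69.2 and 85.2 histone RPM (reads-per-million units of the plain library total), and with STM2457 186, 158 and 163. Every treated NGP library lay above every control, with means of 83.8 ± 13.9 and 169 ± 15.2 (SD, n = 3) and a ratio of 2.02. In SK-N-BE2 the sums were 104, 120 and 117 with DMSO and 118, 101 and 122 with STM2457, which overlapped, with a ratio of 1.00. With DMSO every SK-N-BE2 library lay above every NGP library, and with STM2457 every one lay below. As a yardstick, the 12 genes listed as replication-independent histones summed to 2737 ± 231 RPM in NGP with DMSO and 2853 ± 111 with STM2457. The clustered genes were thus a small share of the histone reads in this poly(A) RNA in every group.

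**Figure D1:**
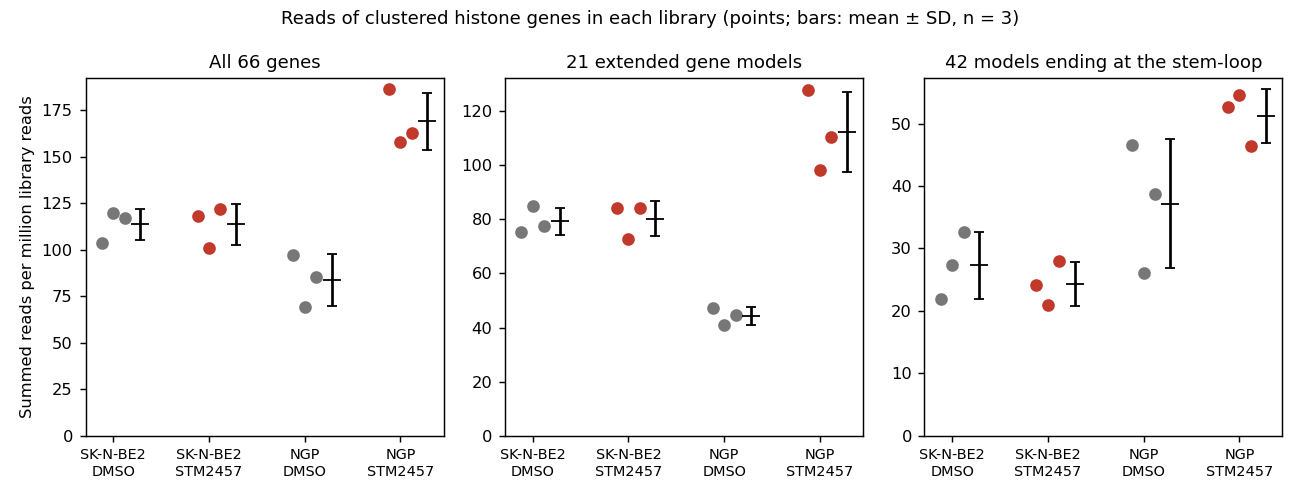
Summed reads of clustered histone genes in RPM (y axis, linear from 0) in the 4 groups (x axis), for all 66 genes and for the extended and short gene models. Points are libraries and bars mean ± SD (n = 3). In NGP the treated libraries (158 to 186) sit above the controls (69.2 to 96.9), and in SK-N-BE2 the groups overlap.

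In NGP the ratios of all 4 core classes were above that of the linker class. H2B reads went from 32.1 ± 2.78 to 83.6 ± 8.86 RPM (ratio 2.61), H3 reads from 8.62 ± 2.54 to 20.03 ± 1.43 (2.32), H4 reads from 11.5 ± 3.08 to 21.1 ± 2.87 (1.83) and H2A reads from 18.5 ± 3.96 to 28.1 ± 1.09 (1.52, all SD, n = 3). In each of these 4 classes the treated libraries lay above all controls. H1 reads went from 13.0 ± 2.90 to 15.9 ± 1.25 RPM (1.22), and the groups overlapped. The H1 sum mainly follows H1-2, which held 662, 394 and 487 of the 817, 486 and 643 H1 reads with DMSO. With STM2457 H1-2 held 747, 651 and 722 of 821, 727 and 773. In SK-N-BE2 the classes diverged instead. H1 reads went from 13.3 ± 3.18 to 7.95 ± 1.36 RPM (ratio 0.600) and H2A reads from 29.3 ± 4.86 to 24.1 ± 1.33 (0.821), each with all treated libraries below all controls. These 2 sums mainly follow 1 gene each, and a fall of the classes apart from those genes was not tested. With DMSO H1-2 held 522, 677 and 799 of the 564, 722 and 837 H1 reads. H2AC6 held 1321, 1591 and 1230 of the 1489, 1764 and 1454 H2A reads. The H2B, H3 and H4 sums of that line had ratios of 1.15, 1.24 and 1.05, and their groups overlapped.

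A few genes carried these sums. In SK-N-BE2 with DMSO the leading 5 (H2AC6, H2BC5, H1-2, H2BC21 and H2BC12) held 64.1% of member reads, and H2AC6 alone 22.7%. In NGP the leader changed from H1-2 (12.3% of member reads with DMSO) to H2BC21 (17.1% with STM2457). Per kilobase of counted exon, H2BC12 stood highest of these in SK-N-BE2 with DMSO at 27.0 RPKM (CPM for each kilobase), followed by H1-2 at 19.8, H2BC5 at 16.6, H2AC6 at 15.8 and H2BC21 at 4.85 RPKM. In NGP with DMSO the order was H2BC12 at 18.2, H1-2 at 15.8, H2BC5 at 6.50, H2AC6 at 5.22 and H2BC21 at 2.77 RPKM. H2BC21 is low on this scale because its model is 2194 bases long, against 381 for H2BC12.

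In NGP, 21 of the 50 tested members rose with STM2457 and 1 fell (edgeR quasi-likelihood test, adjusted p under 0.05). Over all tested genes 41.7% were called, 19.4% higher and 22.2% lower, so the share of members called (44%) was near the background while nearly all of the calls were rises. The median log2 fold change of tested members was 0.64, against -0.03 over all genes. Without regard to the test, 27 of 50 members had every treated library above every control and 1 had every one below, where 26.9% and 27.8% of all tested genes did.

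**Figure D2:**
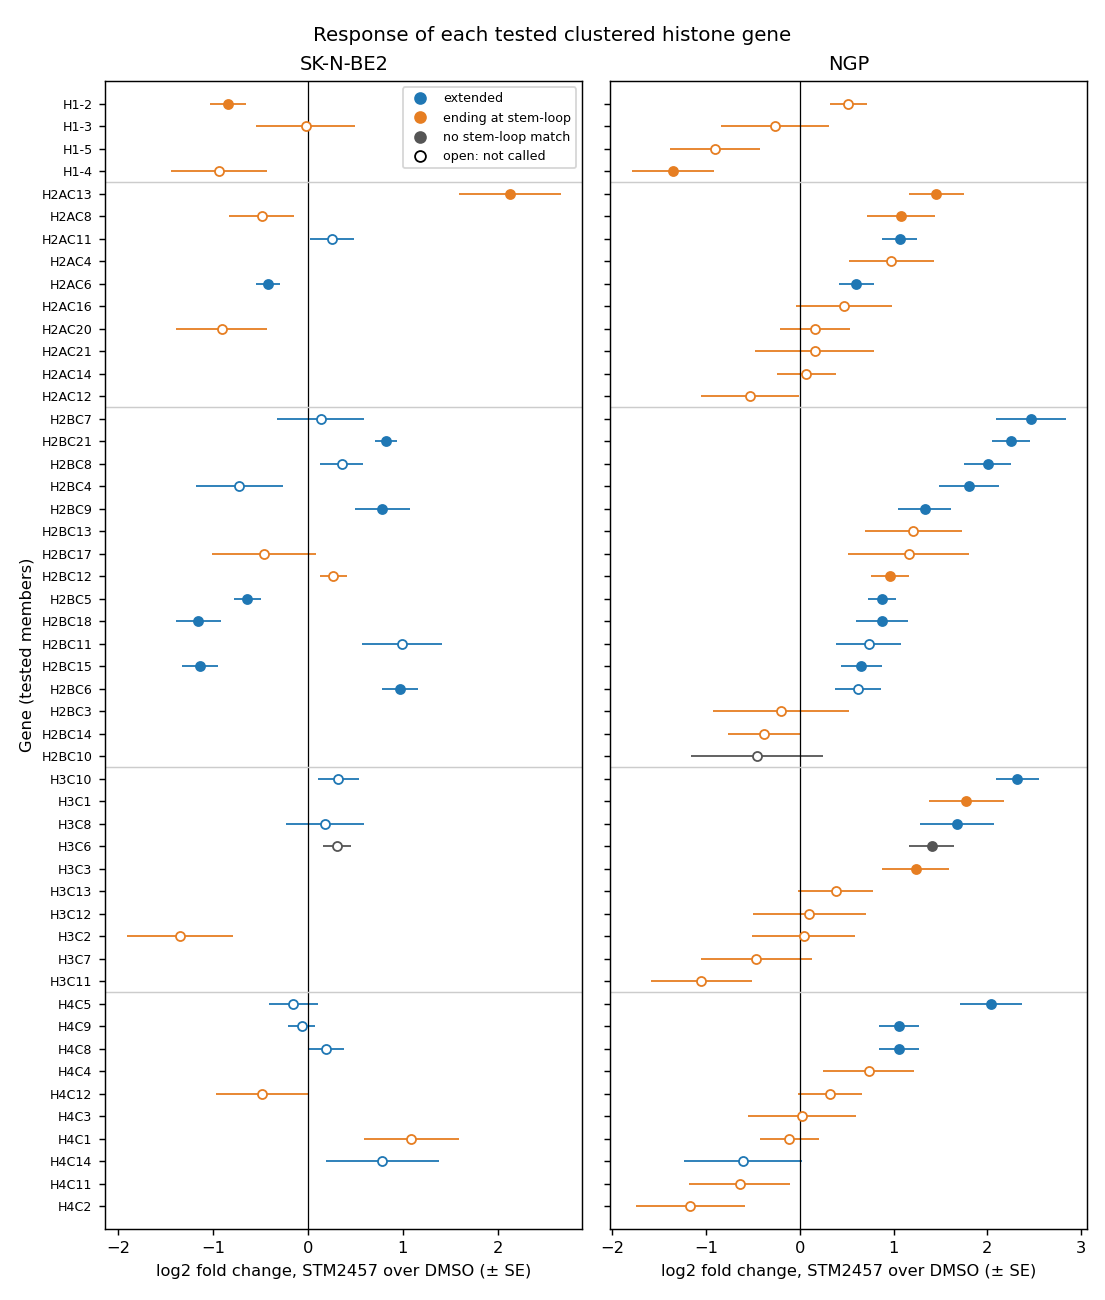
Fitted log2 fold change with its standard error (x axis) for each tested member (y axis, grouped by histone class) in SK-N-BE2 and NGP. Colour gives the gene model and open circles are genes not called. In NGP most blue points (extended models) lie right of 0, up to 2.46 for H2BC7, and in SK-N-BE2 they lie on both sides.

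The H2B genes, which encode the H2A partner in the nucleosome dimer, led the rise in NGP, with 9 of 16 tested members higher and none lower. H2BC21 on chromosome 1 (chr1:149884459-149886652) was at 5.19, 7.56 and 5.47 CPM with DMSO and at 34.9, 23.4 and 28.3 CPM with STM2457. The treated libraries all stood far above the controls, with a fitted log2 change of 2.25 ± 0.20 (SE; adjusted p = 8.89e-05 by edgeR). H2BC7 (chr6:26199520-26200715) went from 0.438, 0.276 and 0.781 to 3.34, 2.42 and 2.50 CPM, a fitted log2 change of 2.46 ± 0.37 (edgeR adjusted p = 0.00121). H2BC8 (chr6:26215159-26216692) went from 2.68, 1.5 and 2.83 to 10.5, 7.80 and 9.77 CPM. H2BC8 was clear of its controls too, with a log2 change of 2.00 ± 0.25 (edgeR adjusted p = 0.000497). H2BC4 and H2BC9 followed with 1.80 and 1.33, and H2BC12, H2BC5, H2BC18 and H2BC15 with 0.65 to 0.96.

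Among the H3 genes of NGP 5 of 10 rose and among the H4 genes 3 of 10, and these 2 histones form the core tetramer. H3C10 (chr6:27810064-27811300) was at 1.47, 1.09 and 1.03 CPM with DMSO and at 7.16, 5.13 and 5.62 CPM with STM2457, a log2 change of 2.32 ± 0.23 (edgeR adjusted p = 0.000136). H4C5 (chr6:26204552-26206038) went from 1.83, 0.671 and 1.33 to 6.14, 4.75 and 4.83 CPM, a change of 2.04 ± 0.33 (edgeR adjusted p = 0.00166). In both genes the lowest treated library was over the highest control. H3C1, H3C8, H3C6 and H3C3 also rose, by 1.77, 1.67, 1.41 and 1.23, and H4C9 and H4C8 by 1.06 each. H3C6 has no hairpin match, and H3C3 rose from a mean of 0.559 to 1.31 CPM.

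The H2A and H1 genes of NGP were more mixed. H2A genes rose in 4 of 10 tested members: H2AC13 by 1.46, H2AC8 by 1.08, H2AC11 by 1.06 and H2AC6 by 0.60 on the log2 scale. The only member that fell was H1-4, a linker histone gene (chr6:26156354-26157107), which went from 0.656, 1.18 and 1.45 to 0.635, 0.378 and 0.271 CPM (log2 change -1.35 ± 0.44, edgeR adjusted p = 0.0368). Its groups were apart, but by little, and the call was lost in 4 of 6 fits that left out 1 library. H1-2 was at 13.2, 7.77 and 9.51 CPM with DMSO and at 15.8, 13.7 and 14 CPM with STM2457 (0.52 ± 0.19, edgeR adjusted p = 0.062), which did not pass. The 28 NGP members that were not called had fitted changes from -1.17 (H4C2) to 1.21 (H2BC13).

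Some of the smaller NGP calls depended on which libraries were used. Leaving out 1 library at a time gave 16 to 26 called members in NGP. H2AC6, H2AC8, H2BC18, H2BC15 and H3C3 lost their call in at least 4 of the 6 such fits, with edgeR adjusted p up to 0.14. For each of them DMSO replicate 2 and STM2457 replicates 1 and 3 were among the libraries whose removal did so.

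In SK-N-BE2, 4 of 30 tested members rose and 5 fell. That is 30% called, beside 54.7% of all tested genes (26.9% higher, 27.8% lower). The difference of these shares was not tested, and many members had few reads, with a median of 0.353 CPM in the 11 tested short models. The median log2 change was 0.05 against -0.02 over all genes. Every treated library lay above every control for 6 members and below for 8, where 33.1% and 29.1% of all tested genes did so, and the other 16 overlapped. The 21 members that were not called had fitted changes from -1.35 (H3C2) to 1.09 (H4C1).

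The rises of SK-N-BE2 were H2BC6, H2BC21, H2BC9 and H2AC13. H2BC6 (chr6:26172059-26184655) was at 2.93, 2.23 and 3.70 CPM with DMSO and at 6.42, 5.47 and 5.95 CPM with STM2457, a log2 change of 0.97 ± 0.19 (edgeR adjusted p = 0.000696). H2BC21 went from 11.8, 9.48 and 10.7 to 19.6, 17.4 and 20.8 CPM, a change of 0.82 ± 0.12 (edgeR adjusted p = 5.76e-05). Both genes had all treated libraries above all controls. H2AC13 rose from only 15 reads summed over the DMSO libraries to 68 over the treated ones (log2 change 2.13 ± 0.54, edgeR adjusted p = 0.00431), and 37.7% of its 50-base stretches are unique. H2BC9 rose by 0.78 ± 0.29 (edgeR adjusted p = 0.0349), a call lost in 4 of 6 fits with 1 library left out.

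The falls of SK-N-BE2 included its leading members. H2BC15 (chr6:27837760-27865798) went from 3.97, 3.41 and 4.23 to 1.96, 1.63 and 1.82 CPM, a log2 change of -1.14 ± 0.19 (edgeR adjusted p = 0.000239). H2BC18 (chr1:149782689-149812373) went from 3.79, 2.52 and 2.64 to 1.5, 1.12 and 1.5 CPM, a change of -1.16 ± 0.24 (edgeR adjusted p = 0.00109). In both, the controls were clear of the treated libraries. H2BC5 fell by 0.64 (from 12.3, 17.1 and 13.9 to 10.7, 8.47 and 9.36 CPM, edgeR adjusted p = 0.00157). H1-2 fell from 9.17, 13.7 and 15.3 to 6.89, 6.12 and 8.82 CPM (log2 change -0.84 ± 0.19, edgeR adjusted p = 0.00177), and here the lowest control was close to the highest treated library. H2AC6, the most abundant member by reads, went from 23.2, 32.3 and 23.6 to 19.8, 19.1 and 21.5 CPM (-0.42 ± 0.13, edgeR adjusted p = 0.0126). The H2AC6 call was lost without STM2457 replicate 2.

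Over all tested members, the NGP responses differed by the length of the gene model. Of 18 tested extended models 15 rose and none fell, with a median log2 change of 1.06, while of 30 tested models ending at the hairpin 5 rose and 1 fell, with a median of 0.13. The extended sum went from 44.3 ± 3.26 to 112 ± 14.8 RPM (ratio 2.53), with no overlap. The short models went from 37.2 ± 10.3 to 51.2 ± 4.27 (1.38, SD, n = 3), and there the groups overlapped. The short models were also lower, with a median of 0.672 CPM against 3.03 in tested NGP members, which leaves fewer reads to call a change. In SK-N-BE2, 3 of 18 extended models rose and 4 fell, and of 11 short models 1 rose and 1 fell.

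**Figure D3:**
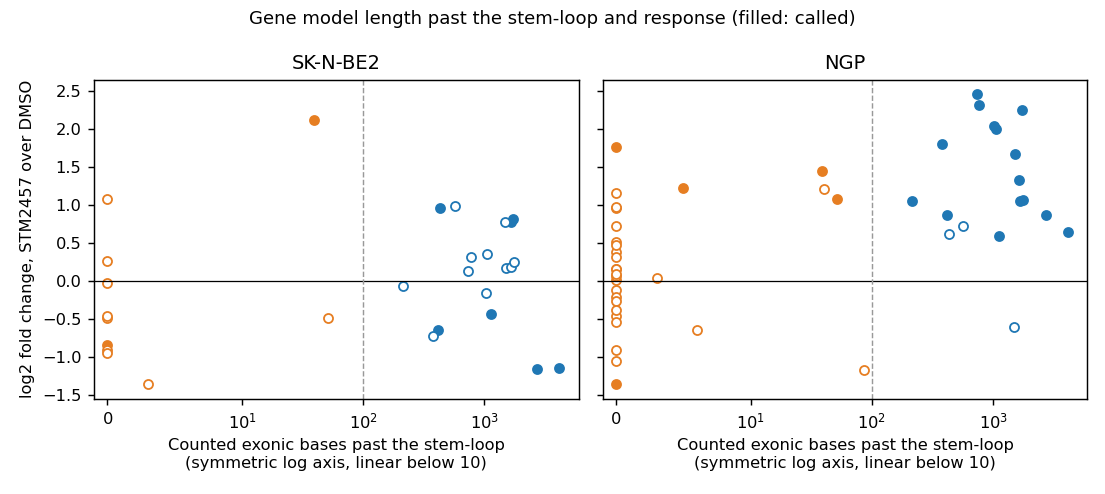
Counted exonic bases past the hairpin (x axis, symmetric log scale, linear below 10) and fitted log2 fold change (y axis) for tested members with a hairpin match, filled where called. Orange points end within 100 bases (dashed line) and blue points are extended. In NGP 15 of 18 blue points are filled and above 0.

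The extended models were further divided by the number of exon blocks in the counted model, an annotation feature. No reads across exon junctions were examined, and the division was made after the values were seen and carries no test. For 11 extended genes, H2BC21, H2BC7, H2BC8, H3C10 and H4C5 among them, the counted exons form 1 block that continues straight through the hairpin. Their sum went from 25.6, 24.1 and 25.3 to 38.5, 31.8 and 37.6 RPM in SK-N-BE2 (ratio 1.44) and from 22.7, 19.8 and 20.8 to 86.3, 61.4 and 73.3 in NGP (3.49). In both lines the treated libraries were above all controls. In SK-N-BE2 this rested on H2BC21: without it the other 10 genes summed to 14.1, 14.9 and 14.8 with DMSO and to 19.0, 14.5 and 17.1 RPM with STM2457, which overlapped. In NGP the sum without H2BC21 went from 17.6, 11.8 and 15.1 to 51.4, 37.9 and 44.7 RPM, again all above. For the 10 others, among them H2AC6, H2BC5, H2BC15 and H2BC18, the counted exons form several blocks, with distant exons joined to the histone exon. Their sum went from 49.8, 60.6 and 52.4 to 45.6, 40.9 and 46.4 in SK-N-BE2 (0.816), all treated libraries below all controls, and from 24.6, 21.1 and 23.9 to 41.4, 37.0 and 37.2 in NGP (1.66), all above. In SK-N-BE2 the single-block genes had 2 rises and no falls among 9 tested, and the several-block genes 1 rise and 4 falls among 9 tested. In NGP 9 of 9 and 6 of 9 rose.

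The responses of the lines differed for 16 of 50 members (edgeR contrast of SK-N-BE2 minus NGP, adjusted p under 0.05). Over all tested genes 30.9% differed, 17.0% in favour of SK-N-BE2 and 13.9% in favour of NGP, and 15 of the 16 members favoured NGP, meaning that NGP had the higher log2 change. The median difference over tested members was -0.61. The 6 largest among genes reaching 1 CPM were H2BC4 (-2.52 ± 0.57, SE), H2BC7 (-2.32 ± 0.58), H4C5 (-2.18 ± 0.42), H2BC18 (-2.02 ± 0.38), H3C10 (-1.98 ± 0.32) and H2BC15 (-1.78 ± 0.27), with edgeR adjusted p from 0.000266 to 0.00781. In SK-N-BE2 the groups of H2BC7 and H4C5 overlapped, with H4C5 at 1.34, 1.24 and 1.57 CPM with DMSO and at 1.33, 1.37 and 1.11 CPM with STM2457. H2BC15 and H2BC18 moved in opposite directions in the lines. In all, 7 members were called in both lines: H2AC13, H2BC21 and H2BC9 rose in both, while H2AC6, H2BC5, H2BC15 and H2BC18 fell in SK-N-BE2 and rose in NGP. No share of all genes called in both lines is given beside these counts, so they are a description only. The NGP calls of H2AC6, H2BC15 and H2BC18 were each lost in at least 4 of 6 fits with 1 library left out. Those 4 genes with opposite calls are all several-block models, a division made after the values were seen.

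**Figure D4:**
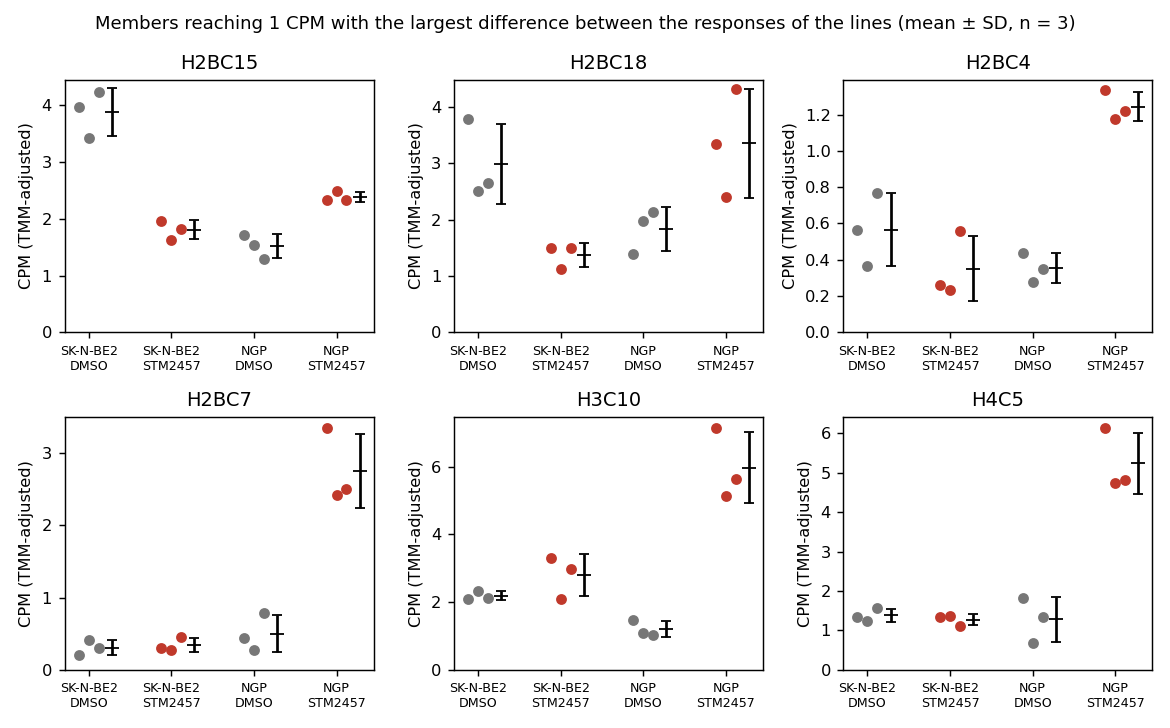
CPM per library (y axis, linear from 0, scaled to library size by TMM) in the 4 groups (x axis) for the 6 members with the largest difference between the lines among those reaching 1 CPM. Points are libraries and bars mean ± SD (n = 3). H2BC15 and H2BC18 drop in SK-N-BE2 and rise in NGP, and H2BC4, H2BC7, H3C10 and H4C5 rise in NGP with overlapping groups in SK-N-BE2.

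With DMSO the same 5 members led in reads in both lines, though in another order. Of 50 tested members 36 differed between SK-N-BE2 and NGP (72%), at the background of 71.1% of all tested genes. Of these, 11 were higher in SK-N-BE2 and 25 lower, where 35.7% and 35.4% of all genes were. Of 18 tested extended models 9 were higher in SK-N-BE2 and 1 lower, and of 30 short models 1 was higher and 23 lower. The filter for this contrast ran over all 12 libraries. Within SK-N-BE2 alone 30 members passed it, 11 of them short models, against 50 and 30 within NGP. Members that entered only through their NGP reads could hardly be called other than lower in SK-N-BE2. The counts by direction are thus partly set by the filter and are a description only. H2AC6 was 1.59 ± 0.17 higher on the log2 scale in SK-N-BE2 (edgeR adjusted p = 1.14e-06), with 23.2 to 32.3 CPM against 7.1 to 11 in NGP. H3C13, a short H3 model whose 50-base stretches are 19.6% unique, was at 0.0703, 0.162 and 0.307 CPM in SK-N-BE2 and at 1.85, 0.572 and 1.64 in NGP (-2.91 ± 0.52, edgeR adjusted p = 0.000157). H2AC20, an H2A gene, was at 0.422 to 0.747 CPM against 1.64 to 4.02 (-2.35 ± 0.44, edgeR adjusted p = 0.000232). Both were spread widely among the NGP controls, with the highest value in replicate 1. Neither H3C13 nor H2AC20 was called for treatment in NGP.

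The genes that surround histone supply gave the setting of these changes. All 16 listed DNA replication genes rose in SK-N-BE2 (median log2 change 1.36) and 14 of 16 in NGP (0.77). Rises made up 26.9% of all tested genes in SK-N-BE2 and 19.4% in NGP. GINS2, a subunit of the replicative helicase, went from 13.7, 15 and 10.3 to 44.4, 41.9 and 42.2 CPM in SK-N-BE2 and rose by 1.00 in NGP. RRM2, the small subunit of ribonucleotide reductase, rose by 1.5 and 1.33. The line with the larger median rise of replication genes was the line whose clustered histone reads stayed level. The difference between lines was called for 9 of the 16, each more positive in SK-N-BE2, as were 17.0% of all tested genes. That line also started lower: with DMSO 14 of the 16 were lower in SK-N-BE2 than in NGP and none higher (median log2 difference -1.12). Over all tested genes 35.4% were lower and 35.7% higher. How these levels bear on the histone reads was not tested.

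Of the 8 genes of histone gene transcription, 5 rose and 2 fell in SK-N-BE2 (87.5% called), and 3 rose and 2 fell in NGP (62.5%). The shares of all tested genes called were 54.7% and 41.7%, and the differences from them were not tested. CDK2 rose by 1.11 and 1.19 and CCNE1, a cyclin that activates it, by 0.77 and 1.08. NPAT itself rose in SK-N-BE2 from 47.5, 39.4 and 40.6 to 52.7, 57.2 and 54.6 CPM (0.33 ± 0.09, edgeR adjusted p = 0.00778) and was at 0.39 ± 0.21 in NGP (edgeR adjusted p = 0.173). HINFP, a factor for H4 promoters, fell by 0.28 in SK-N-BE2 and by 0.46 in NGP. CCNE2 rose by 1.89 and 0.92, with exons that overlap a gene on the other strand.

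Genes that form or remove the histone mRNA end had shares of calls under the 54.7% (SK-N-BE2) and 41.7% (NGP) of all tested genes, a difference that was not tested. Among 17 genes of 3′ end processing 7 rose and 1 fell in SK-N-BE2 (47.1% called), and 3 rose and 1 fell in NGP (23.5%). SLBP, which binds the hairpins printed above, went from 54.2, 61.7 and 59.7 to 73.4, 69.1 and 73.5 CPM in SK-N-BE2 (0.26 ± 0.08, edgeR adjusted p = 0.0163). In NGP SLBP was at 51.7, 38 and 39.9 CPM with DMSO and at 42.4, 46.8 and 43.9 CPM with STM2457 (0.04 ± 0.14, edgeR adjusted p = 0.833), and the groups overlapped. LSM11, a protein of the U7 snRNP, rose by 0.62 in NGP, and NCBP1, the large cap-binding subunit, fell by 0.61 there and rose by 0.36 in SK-N-BE2. Of 10 decay genes 3 rose and 2 fell in SK-N-BE2 (50% called), and 2 rose in NGP (20%). ERI1, the exonuclease that trims the hairpin end, rose by 0.37 and 0.56. Of 14 general polyadenylation genes 1 rose and 3 fell in SK-N-BE2 (28.6% called). In NGP 1 rose (CPSF6, 0.66) and 1 fell (FIP1L1, by 0.51), which is 14.3%.

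Histone chaperones and acetylation factors rose in 13 of 20 cases in SK-N-BE2, with 3 falls (80% called), and in 8 of 20 in NGP with none (40%). TONSL, which reads new H4, rose by 1.46 and 0.89, CHAF1B, a subunit of chromatin assembly factor 1, by 0.95 and 1.34, and NASP, the H3-H4 chaperone, by 0.74 and 0.96. The replication-independent histones were mixed: 3 rose and 4 fell of 12 in SK-N-BE2 (58.3% called), and 5 rose and 1 fell of 11 in NGP (54.5%). Their SK-N-BE2 share was near that of all tested genes, and the difference in NGP was not tested. H2AZ2, an H2A.Z gene, rose by 0.41 and 0.91, MACROH2A1 by 0.26 and 0.28 and CENPA, the centromeric H3, by 0.36 and 0.60. H3-3A fell by 0.24 in SK-N-BE2 and rose by 0.59 in NGP. H3-3B fell by 0.27 and H2AJ by 0.58 in SK-N-BE2, H2AZ1 rose by 0.57 in NGP, and H2AX, H1-10, MACROH2A2 and H3-5 were not called in either line.

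**Figure D5:**
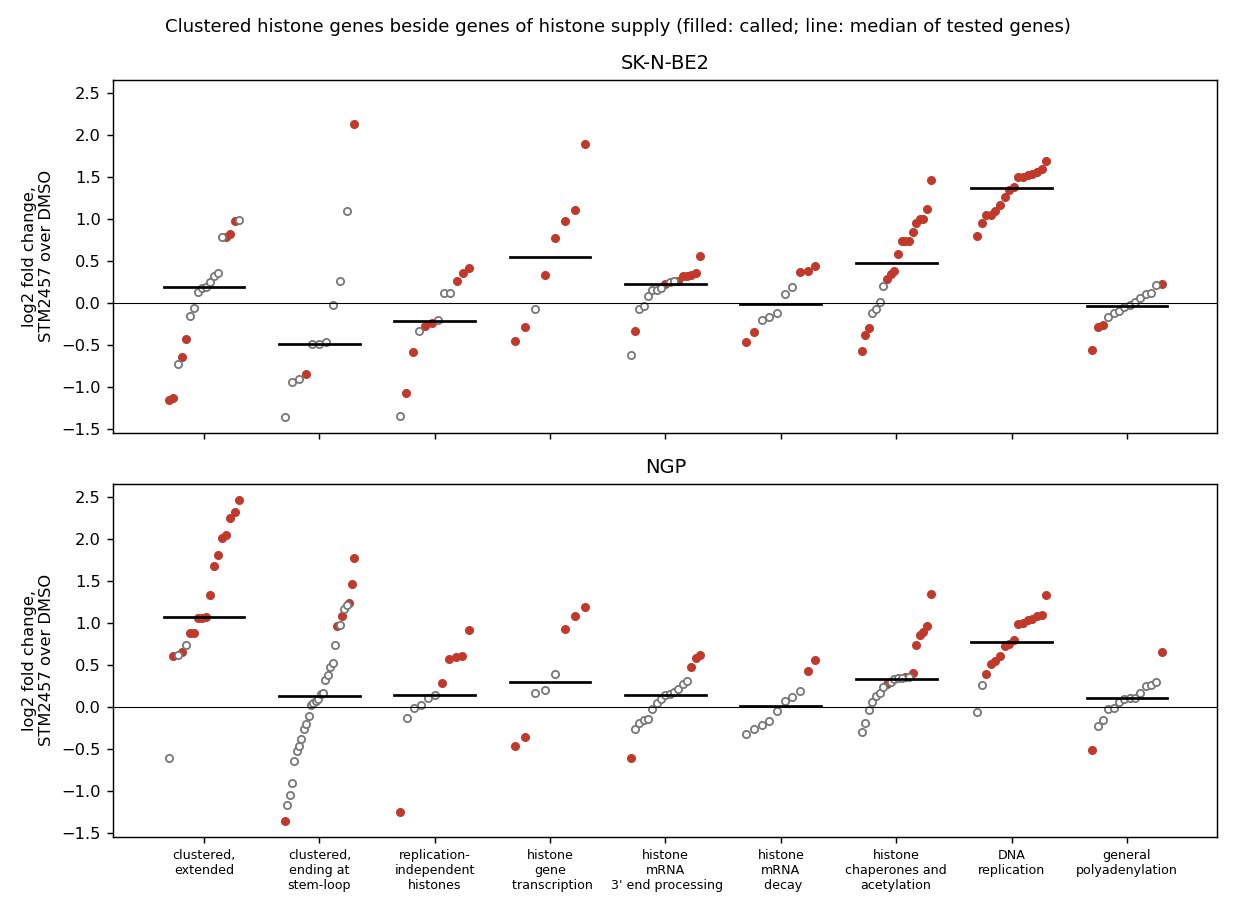
Fitted log2 fold change (y axis) of each tested gene in the extended and short clustered models and in the 7 lists (x axis), in SK-N-BE2 (top) and NGP (bottom). Filled points are called and bars are medians. The median of the replication genes is 1.36 in the top panel and 0.77 in the bottom panel, and that of the extended histone genes 0.19 and 1.06.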

How the data were processed

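RNA was measured in 12 libraries, grouped through the titles given to them. The authors deposited unnormalized read counts for each gene. Per the file headers, the authors ran featureCounts 2.0.5 on the exons of protein-coding genes of GENCODE 33, summed by gene name, with the paired option. No strand option was set, multi-mapping reads were dropped, and both mates of a fragment can be counted. The submitters' processing notes name FastQC 0.11.5, Trimmomatic 0.36, HISAT2 2.1.0 and featureCounts in Subread 1.5.3, without roles. Per the labels' protocols, poly(A) RNA was purified from total RNA and made into cDNA with a SMART kit.

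Treatment was tested within the 6 libraries of a line, and contrasts between lines over all 12 libraries as 4 group means, with the quasi-likelihood test of edgeR 4.0.16 (R 4.3.3). Genes were kept by filterByExpr at a minimum count of 10, scaled by TMM, and p-values adjusted by Benjamini-Hochberg over all tested genes at 0.05. A standard error is the absolute log2 change over the root of F. The fit was tested on simulated data. CPM and RPKM use TMM-scaled library sizes, and sums use plain library totals without a test. Changes are relative to library totals.

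The members, the 7 lists (97 genes) and the tests were chosen with earlier results of these data known. Named were, in each line, the 10 largest rises and falls among called members with a mean of at least 1 CPM, the 6 largest line differences, the 3 members of each class with the highest RPKM, SLBP, NPAT, the replication-independent histones (of which not every value is reported here) and up to 4 called genes per direction of the other lists. H3C3, H2AC11, H2AC14 and H3C2 and the genes at the ends of ranges were named after their values were seen. Replicates differed by more than sampling noise (chi-square per degree of freedom from 2.77 to 92.6 on halved counts). Sequences were read from GRCh38 with GENCODE 44 and from RefSeq promoters, and a hairpin was a 6-base stem with at least 5 pairs and a 4-base loop within 200 bases after the stop codon. It also had to begin with GG, end with CC and hold TT first in the loop, and G-T pairs were allowed. The depth leaves counting error small for the leading members and limits members of a few reads, which lie under the minimum count. Alternatives were DESeq2 1.42.0, its size factors, upper-quartile factors, other filters, robust and joint fits, halved counts, a replicate block, a minimum absolute log2 change of 1 and each library left out. For the sums they were other scalings and subsets of members.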

Additional observations from a re-analysis of the deposited data

Results flagged for a closer look

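The response to STM2457 differed between the lines for 16 members by the test of the difference itself (edgeR contrast, log2, SK-N-BE2 minus NGP, adjusted p under 0.05). The difference was -2.52 for H2BC4, -2.32 for H2BC7, -2.18 for H4C5, -2.02 for H2BC18, -1.98 for H3C10 and -1.78 for H2BC15. It was -1.64 for H2BC8, -1.56 for H2AC8, -1.50 for H2BC5, -1.42 for H2BC21 and -1.35 for H1-2. It was -1.11 for H4C9, -1.09 for H3C6, -1.01 for H2AC6 and -0.86 for H4C8. In the other direction stood H2AC14 with 2.40, from 4 reads summed over SK-N-BE2 libraries with DMSO and 24 with STM2457. When each of the 12 libraries was left out in turn, the call was lost in 11 fits for H2AC14, in 6 for H4C8 and in 3 for H2AC8. Line, dose and sequencing run cannot be told apart in these values.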

How the results depend on the processing

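Over 2000 refits of single named genes under the alternatives, 1848 kept direction and side of the threshold, 142 lost the call, 10 gained it and none changed sign. With a minimum absolute log2 change of 1, called members in SK-N-BE2 went from 9 to 3, and called list genes were 19 in place of 63 (SK-N-BE2) and 10 in place of 41 (NGP), as that setting asks for larger changes. With a mean of at least 1 CPM, members differing between the lines in DMSO went from 36 to 13, since fewer members were tested. Leaving out 1 library gave 8 to 10 called members in SK-N-BE2, 16 to 26 in NGP, 14 to 20 for the difference of the responses and 31 to 39 between the lines in DMSO. For list genes in NGP it gave 33 to 63, the highest without DMSO replicate 1, and the cause was not tested. As a median of per-gene ratios the summed response was 1.15 in SK-N-BE2 and 1.52 in NGP, in place of 1.00 and 2.02. For subsets chosen after the data were seen, the NGP ratio was 2.53 for extended and 1.38 for short models.

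The replicate numbers did not pair the libraries: deviations of same-numbered libraries correlated at -0.141, 0.134 and 0.00159 in SK-N-BE2 and at 0.00461, -0.139 and 0.0653 in NGP. With the number as a replicate block, called members were 10 in SK-N-BE2, 22 in NGP, 15 for the difference and 35 in DMSO, and list genes 62 and 38.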

Other observations

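H3-2, H3-4, H2AW and H2BU1, histone genes on chromosome 1 that the naming rule leaves out, summed to 41.8 ± 10.9 RPM in SK-N-BE2 with DMSO and 51.3 ± 6.91 with STM2457, and to 34.7 ± 6.38 and 30.4 ± 2.88 in NGP (SD, n = 3), with overlapping groups in both lines. H3-2 fell in SK-N-BE2, from 12.0, 7.61 and 10.4 to 6.09, 6.61 and 6.79 CPM (log2 change -0.66 ± 0.16, edgeR adjusted p = 0.0031), and was at 1.59 to 2.88 CPM in NGP with DMSO. H2AW rose in SK-N-BE2 (0.51 ± 0.19, edgeR adjusted p = 0.0337), from 26.0, 18.9 and 35.7 to 47.3, 31.7 and 39.1 CPM, although those groups overlapped, while in NGP it did not pass (-0.24 ± 0.20, adjusted p = 0.364 by edgeR). H2BU1 was called in neither line, and H3-4 had at most 3 reads in any group. With these 4 genes added, the ratio of the summed clustered histone reads was 1.06 in SK-N-BE2 and 1.68 in NGP.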
